A study of Mus musculus with 24 samples.

Results

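The genes described here are 10 transcription factors of the cardiac regulatory core, namely Gata4, Gata6, Nkx2-5, Tbx5, Tbx20, Mef2a, Mef2c, Mef2d, Hand2 and Srf. They were chosen by name, with no measured value in the rule, but with earlier results of these data known. All 10 were found by Ensembl identifier among the 43432 genes of the deposited table. Each had counts in all 24 libraries and passed the filter on low counts in every comparison. The hearts came from C57BL/6 mice in 6 groups of 4 libraries. The exercise cohort held sedentary mice and mice with wheel running for 8 weeks. In transverse aortic constriction (TAC) a band narrows the aortic arch, so that the heart pumps against a raised pressure. It was applied for 2 weeks or for 8 weeks, and each TAC group had its own sham-operated group. The labels attach LVH (left ventricular hypertrophy) to the 2-week TAC hearts and their shams, and HF (heart failure) to the 8-week TAC hearts and their shams, so the controls are called LVH shams and HF shams here. No genotype or drug is named in the labels, which also leave out sex, age and the time from sham surgery. The labels give no source beyond heart, so the chambers sampled are unknown, and they do not say that each library is a separate animal. If some are not, the p-values measure technical spread in part. In bulk tissue, fewer cells of a type and less RNA per cell cannot be told apart.

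These factors bind short DNA motifs in the promoters and enhancers of heart genes and often act together on the same element. GATA4 and GATA6 are zinc-finger proteins, NKX2-5 is a homeodomain protein, TBX5 and TBX20 share the T-box DNA-binding domain, MEF2A, MEF2C, MEF2D and SRF share the MADS box, and HAND2 is a basic helix-loop-helix protein that binds E-boxes with a partner. They pattern the heart in the embryo, and in the adult ventricle they maintain genes of contraction, conduction and metabolism. In mice, GATA4, the MEF2 proteins and SRF also take part in the growth response to pressure load.

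At 2 weeks of TAC, 6 of the 10 factors fell (Gata6, Nkx2-5, Tbx5, Mef2a, Mef2d and Hand2), 1 rose (Tbx20) and 3 were not called (Gata4, Mef2c and Srf), while scaling by library totals alone gave 1 lower and 3 higher. A gene was called at an edgeR quasi-likelihood adjusted p under 0.05. Of all 14224 genes tested, 33.2% were called, 17.1% higher and 16.1% lower. Scaled by library totals, 6995 of these 14224 genes were called higher and 614 lower. At 8 weeks of TAC, 6 factors fell (Gata4, Gata6, Nkx2-5, Tbx5, Mef2a and Mef2d), none rose and 4 were not called (Tbx20, Mef2c, Hand2 and Srf), while library totals gave 1 lower and 2 higher. The background was 29.6% of 13621 genes called, 14.9% higher and 14.7% lower. Scaled by library totals, 6075 of these 13621 genes were called higher and 568 lower. The 5 factors Gata6, Nkx2-5, Tbx5, Mef2a and Mef2d fell at both times, which is 5 of 6 at each time. The like counts over all genes were 2289 called lower at 2 weeks, 2000 at 8 weeks and 1155 at both. Those 1155 are 8.53% of the 13542 genes tested at both times. A further 8.79% were called higher at both, among them none of the factors. The 4 TAC values lay wholly apart from the 4 sham values for 6 factors at 2 weeks (32.8% of all genes) and for 7 at 8 weeks (29.4% of all genes). After running, none of the 10 was called, and 0% of 13824 genes were. All 10 overlapped between running and sedentary hearts, where 2.95% of genes did not. Tbx5 changed most, with a 1.93-fold lower level at 2 weeks and a 2.41-fold lower level at 8 weeks, and each other called change was within 1.41-fold. The median log2 fold change over the 10 factors was -0.32 at 2 weeks and -0.35 at 8 weeks, beside -0.0021 and 0.0035 over all genes tested.

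**Figure D1:**
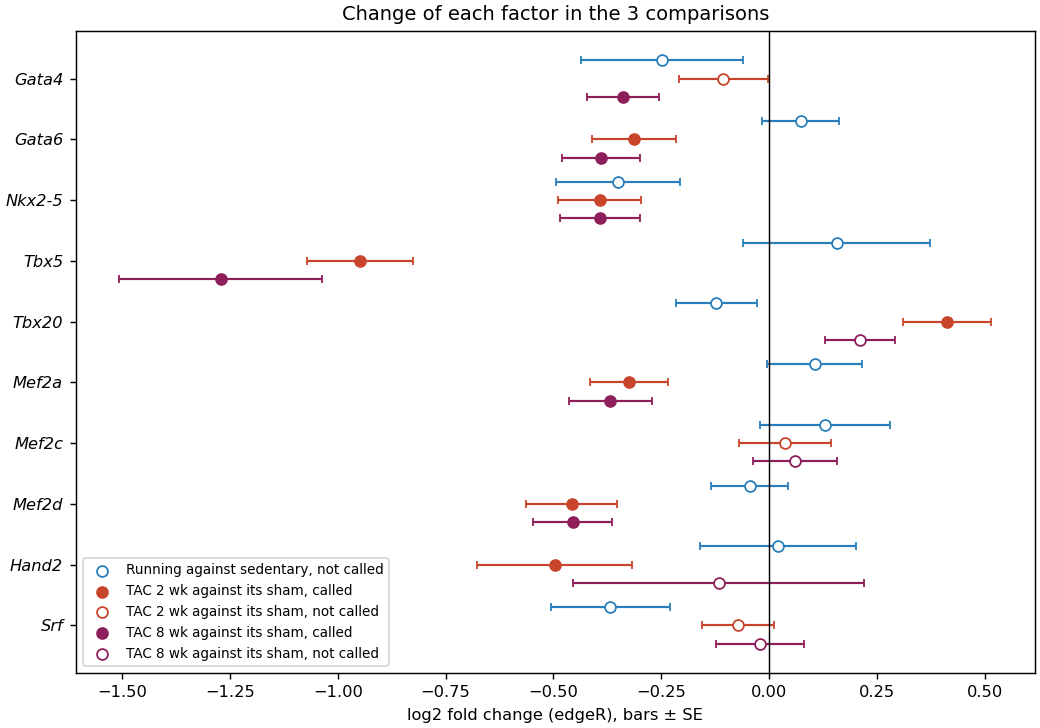
Log2 fold changes of the 10 factors in the 3 comparisons (x axis, log2 scale; TAC against its sham at 2 and 8 weeks, running against sedentary), with bars of ± SE from edgeR; filled points are called and open points are not. Tbx5 lies farthest below 0 in both TAC comparisons, at -0.95 and -1.27, and Tbx20 is above 0 in both.

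The direction of the smaller changes depends on how libraries are scaled. The total counts ranged from 16802939 to 39512101, and mitochondrially encoded genes took 50.7% to 58.4% of counts in 2-week TAC hearts against 59.8% to 64.5% in LVH shams, and 52.7% to 57.6% in 8-week TAC hearts against 61.3% to 67.0% in HF shams. With library totals as the only scaling, the median gene moved by 0.41 (log2) at 2 weeks and 0.33 at 8 weeks, and only Tbx5 was still called lower at either time. On that scale Gata4, Gata6, Nkx2-5, Mef2a and Srf had values above 0 at 2 weeks, Hand2 and Srf had values above 0 at 8 weeks, and Mef2c was called higher at both times, Tbx20 at both and Srf at 2 weeks. The values below use TMM scaling, which sets the bulk of genes to no change, so each is relative to that bulk. With mitochondrial genes removed before scaling, the same number of factors was called in each direction at both times. Between libraries of a group, the median correlation of log2 CPM (counts scaled to a common library total by TMM) was 0.973 to 0.984. This value over all genes cannot show whether a library stood apart in some of them. In running heart 4, mitochondrial genes took 73.6% of counts, against 62.1% to 67.8% in the other running hearts.

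The labelled tissue matched its markers. All 10 cardiomyocyte markers were measured, with summed levels of 53115 to 59550 CPM in LVH shams and 34556 to 41604 in 2-week TAC hearts, and 56194 to 59557 in HF shams and 41200 to 50701 in 8-week TAC hearts. Of these markers, 8 were called lower at 2 weeks and 4 at 8 weeks. Fibroblast markers moved the other way, with 10 of 11 called higher at 2 weeks and 9 of 11 at 8 weeks. Their summed level was 1033 to 1302 CPM in LVH shams, 2706 to 3895 in 2-week TAC hearts, 877 to 1192 in HF shams and 1730 to 2298 in 8-week TAC hearts. Macrophage and monocyte markers were called higher for 9 of 10 at 2 weeks (summed 159.9 to 248 CPM in shams, 303 to 397 after TAC) and 8 of 10 at 8 weeks (119.8 to 178 and 196 to 295). Endothelial markers were called higher for 5 of 10 at 2 weeks (summed 447 to 544 CPM in shams, 553 to 581 after TAC) and 0 of 10 at 8 weeks. Of the smooth muscle and pericyte markers, 5 of 10 were called higher and 1 lower at 2 weeks (summed 768 to 832 and 799.7 to 845 CPM). At 8 weeks 3 were called higher and 1 lower, while their summed level was 732.7 to 769.8 CPM in HF shams and 646.0 to 733.1 after TAC. Atrial markers were called higher for 2 and lower for 2 of 7 tested at 2 weeks, and higher for 1 and lower for 2 at 8 weeks. Nerve and Schwann cell markers were called lower for 2 of 5 and 2 of 3, and epicardial markers higher for 1 of 2 and 0 of 2. Lymphocyte and skeletal muscle markers were mostly too low to test, with 1 of 9 tested in each list at 2 weeks, 0 of 9 at 8 weeks and 0 called. None of these markers was at 0. Their part in the changes of the factors was not tested.

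Per kilobase of exon, with all annotated exons of a gene counted, levels of different genes can be compared roughly. The isoforms expressed in these hearts are not known, so the order of genes is approximate. The median over the 24 libraries was highest for Gata4 at 8.47 CPM per kb and lowest for Tbx5 at 1.32. Between them lay Mef2d at 7.91, Tbx20 at 7.31, Srf at 6.70, Nkx2-5 at 5.50, Mef2a at 5.18, Hand2 at 3.56, Gata6 at 2.71 and Mef2c at 2.05 CPM per kb. The highest library exceeded the lowest 5.41-fold for Tbx5 and 3.92-fold for Hand2, and 1.64-fold to 2.12-fold for the other 8 factors. All levels that follow are CPM without the length correction and are compared within a gene only.

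**Figure D2:**
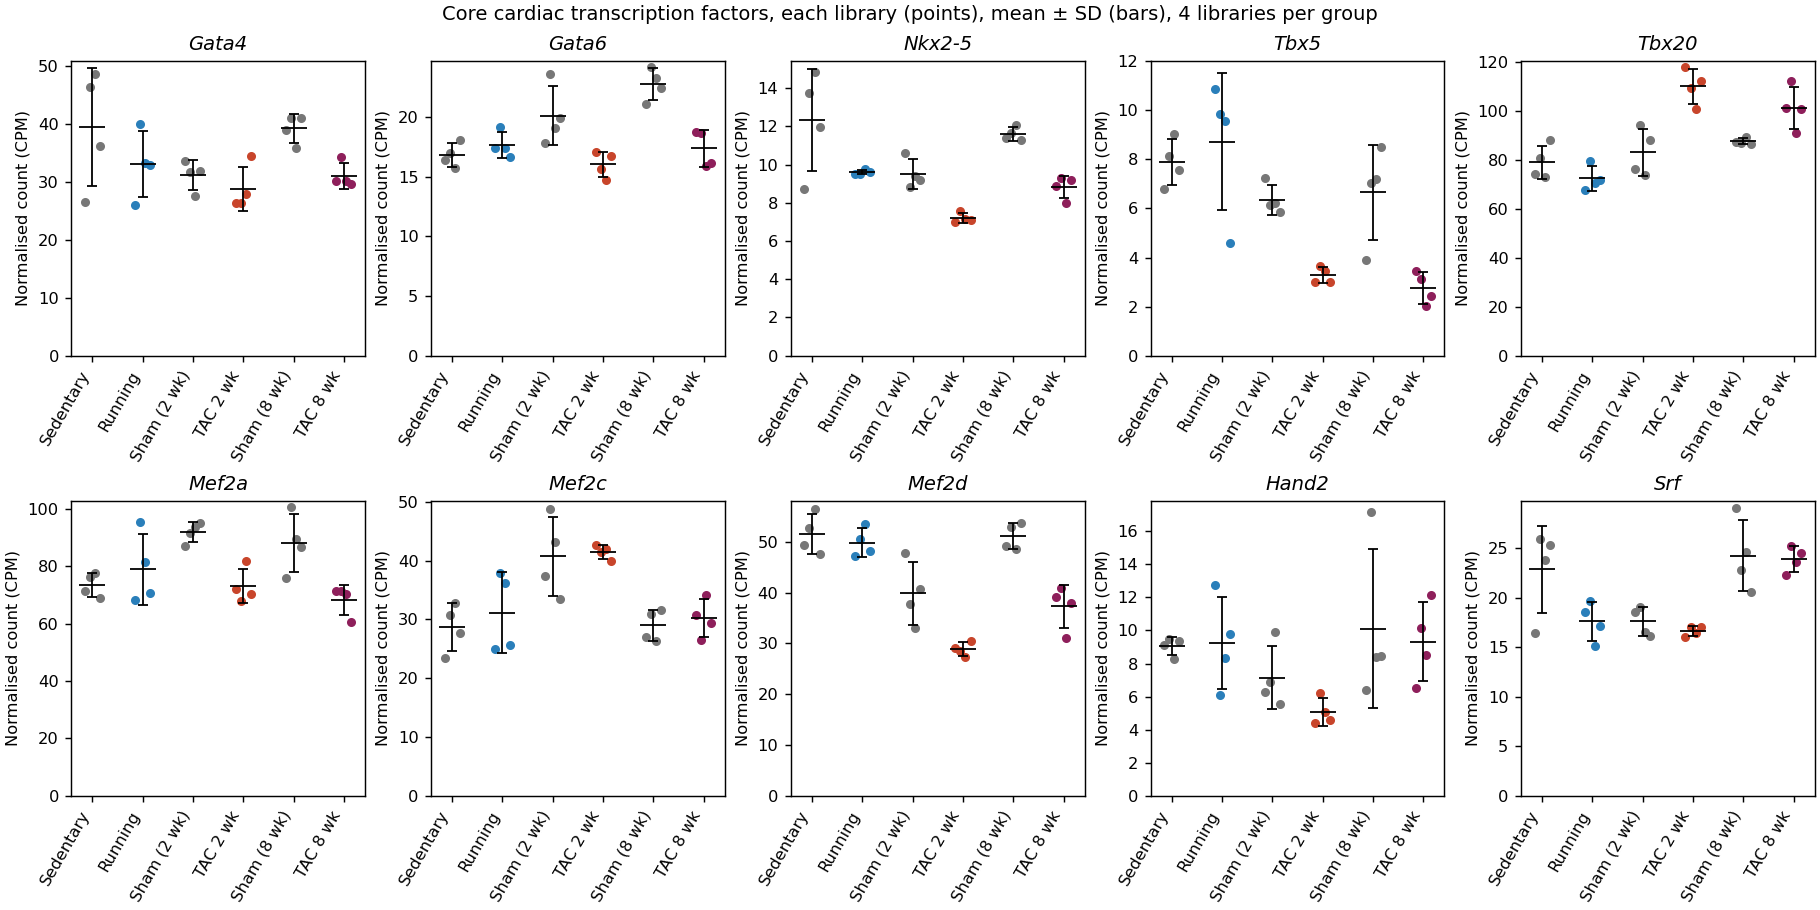
Level of each factor in every library (y axis, CPM; a panel per gene), with points for the 4 libraries of each of the 6 groups and bars for mean ± SD; the LVH and HF shams are drawn as sham (2 wk) and sham (8 wk). Tbx5 falls to 3.00 to 3.67 CPM in 2-week TAC hearts against 5.84 to 7.23 in their shams, while Tbx20 rises to 101 to 118 against 73.9 to 94.1.

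Tbx5, the T-box factor whose loss of function causes Holt-Oram syndrome in humans, activates genes of atrial identity and conduction. Its level was 7.23, 6.14, 6.21 and 5.84 CPM in the 4 LVH shams and 3.00, 3.67, 3.47 and 3.02 CPM in the 2-week TAC hearts. Every TAC heart lay below every sham, and the difference was 6.36 ± 0.608 against 3.29 ± 0.336 CPM (mean ± SD, n = 4 each; log2 fold change -0.95 with SE 0.12, edgeR adjusted p = 7.52e-05). It was 3.90, 7.02, 7.20 and 8.50 CPM in the HF shams and 3.45, 3.13, 2.01 and 2.42 CPM in the 8-week TAC hearts. These groups were also separate, although the lowest HF sham, replicate 1, was close to the highest TAC heart. The mean was 6.65 ± 1.95 CPM in HF shams and 2.75 ± 0.656 in TAC hearts (edgeR adjusted p = 0.00206, log2 fold change -1.27, SE 0.24). This decrease was called under all 16 alternative settings at both times. In sedentary hearts the level was 6.80, 8.14, 9.04 and 7.58 CPM, and in running hearts 10.9, 9.87, 9.56 and 4.61 CPM, where replicate 4 was far below the other 3. Ordered by mean, running, sedentary, HF sham and LVH sham hearts overlapped with their neighbours, the LVH shams lay wholly above the 2-week TAC hearts, and both TAC groups overlapped.

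Tbx20, a T-box factor that represses or activates depending on its partners and is needed in adult mouse cardiomyocytes, moved the other way. Its level was 76.1, 94.1, 73.9 and 88.1 CPM in LVH shams and 118, 109, 101 and 112 CPM in 2-week TAC hearts. All 4 TAC hearts lay above all 4 shams, with means of 110.0 ± 7.08 and 83.1 ± 9.64 CPM and a 1.33-fold higher level (log2 fold change 0.41 with SE 0.10, edgeR adjusted p = 0.00667). At 8 weeks the values were 87.5, 87.0, 89.2 and 86.5 CPM in HF shams and 101, 112, 91.2 and 101 CPM in TAC hearts. These groups did not overlap either, yet the change missed the threshold (log2 fold change 0.21 with SE 0.08, edgeR adjusted p = 0.0617). It was called at 8 weeks by DESeq2 (0.21, adjusted p = 0.0383) and without TAC heart 3 (0.26, adjusted p = 0.0193). Sedentary hearts held 73.1 to 87.9 CPM and running hearts 67.6 to 79.6 CPM. Both TAC groups headed the order of levels, and the 8-week TAC hearts were separate from the HF shams next below them.

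The opposite moves of this pair showed in their ratio within each library, which does not depend on library scaling. Per kilobase, Tbx20 exceeded Tbx5 5.15 ± 0.926-fold (range 4.10 to 5.97) in LVH shams and 13.2 ± 2.02-fold (range 11.3 to 15.3) in 2-week TAC hearts. The ratio was 5.59 ± 2.14-fold (range 3.97 to 8.74) in HF shams and 14.8 ± 2.73-fold (range 11.4 to 17.7) in 8-week TAC hearts. At both times each TAC heart had a higher ratio than each of its shams. In sedentary hearts it was 3.94 ± 0.593-fold (range 3.15 to 4.52) and in running hearts 3.63 ± 1.66-fold (range 2.42 to 6.08), with overlapping ranges. The ratio shows unequal change of the pair and was examined after both changes were known, so no test is given. Its size depends on the exon lengths used, which are the same for every library.

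**Figure D3:**
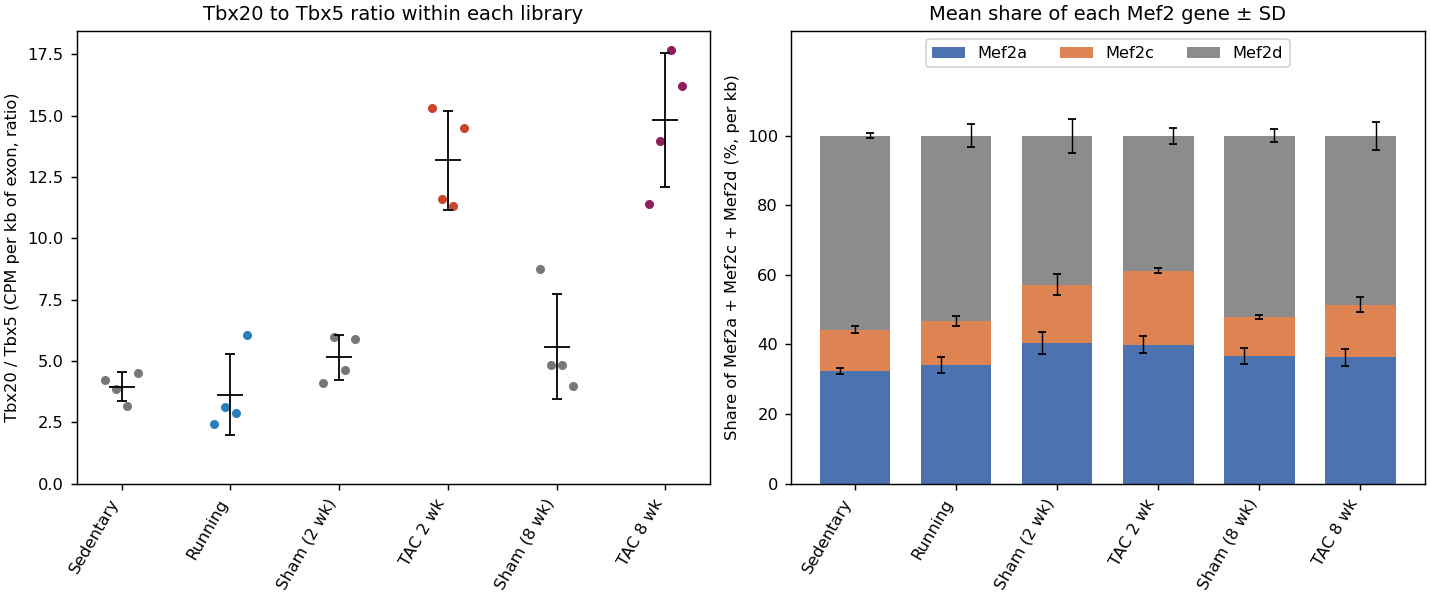
Ratios within each library in the 6 groups. Left, Tbx20 over Tbx5 per kb of exon (y axis, ratio), with a point for each library and bars for mean ± SD. Right, mean share of Mef2a, Mef2c and Mef2d in their sum per kb (y axis, percent, bars ± SD). The Tbx20 to Tbx5 ratio is 11.3 to 15.3 in 2-week and 11.4 to 17.7 in 8-week TAC hearts, above both sham groups.

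Gata4, which activates natriuretic peptide and contractile genes, was called at 8 weeks and not at 2 weeks. At 2 weeks it was 33.6, 31.8, 27.5 and 31.9 CPM in LVH shams and 26.4, 26.4, 27.9 and 34.5 CPM in TAC hearts. The ranges overlapped and the change was not called (log2 fold change -0.11 with SE 0.10, edgeR adjusted p = 0.464). At 8 weeks it was 39.1, 41.1, 35.9 and 41.1 CPM in HF shams and 30.2, 34.3, 30.1 and 29.6 CPM in TAC hearts. There the groups were separate and Gata4 fell 1.27-fold (log2 fold change -0.34 with SE 0.08, edgeR adjusted p = 0.00722), a call lost when all 24 libraries shared 1 estimate of the spread (-0.34, adjusted p = 0.0721). The difference between the 8-week and the 2-week effect was itself not called for Gata4 (log2 fold change -0.23 with SE 0.20, edgeR adjusted p = 0.578). Its widest spread was in sedentary hearts, at 26.6, 46.5, 48.7 and 36.3 CPM, and running hearts held 26.1, 40.1, 33.2 and 32.9 CPM. All neighbours in the order of group means overlapped, from sedentary down through HF sham, running, LVH sham and 8-week TAC to 2-week TAC hearts.

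Gata6, the related factor that is also expressed in vascular smooth muscle and fibroblasts, fell at both times. It was 17.8, 23.6, 19.1 and 19.9 CPM in LVH shams and 17.0, 15.7, 14.8 and 16.7 CPM in 2-week TAC hearts, where every TAC value was below every sham value. The fall was 1.243-fold (log2 fold change -0.31 with SE 0.10, edgeR adjusted p = 0.0236), and without 1 library the call was lost in 3 of 8 cases, with adjusted p up to 0.0773. Those were the fits without 2-week TAC heart 2, 2-week TAC heart 3 or LVH sham 2. At 8 weeks Gata6 was 21.1, 24.2, 23.3 and 22.4 CPM in HF shams and 18.7, 18.6, 15.9 and 16.2 CPM in TAC hearts. Groups were again separate, with a 1.31-fold fall (log2 fold change -0.39 with SE 0.09, edgeR adjusted p = 0.00513). Its sedentary values of 16.4, 17.0, 15.7 and 18.1 CPM and running values of 17.4, 19.2, 17.4 and 16.6 CPM overlapped. HF shams and LVH shams headed the order for Gata6, and all neighbouring groups overlapped. The Gata4 to Gata6 ratio per kilobase had group means between 2.62 and 3.94, without a gap between a TAC group and its shams. An antisense gene, 1010001N08Rik, overlaps Gata6 over 93 bases of exon. Its log2 fold change was -0.40, adjusted p = 0.0822 at 2 weeks and -0.88, adjusted p = 0.00322 at 8 weeks, and since no strand setting is given, reads in the shared stretch could belong to either gene.

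Nkx2-5, the homeodomain factor that acts with GATA4 and TBX5, fell by a similar amount at each time. It was 10.6, 8.82, 9.37 and 9.18 CPM in LVH shams and 7.00, 7.57, 7.16 and 7.12 CPM in 2-week TAC hearts. The 4 TAC hearts lay within a narrow range below the shams, a 1.31-fold fall (log2 fold change -0.39 with SE 0.10, edgeR adjusted p = 0.00627). HF shams held 11.4, 11.6, 12.1 and 11.3 CPM and 8-week TAC hearts 8.87, 9.27, 8.00 and 9.19 CPM. These did not overlap, with a 1.31-fold fall (log2 fold change -0.39 with SE 0.09, edgeR adjusted p = 0.00591). In the order of group means, HF shams were separate from the running hearts below them, and 8-week TAC hearts were separate from the 2-week TAC hearts at the bottom.

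The 3 Mef2 genes, whose products are held in check by class II histone deacetylases and released by calcium signalling, did not move together: Mef2a and Mef2d fell at both times and Mef2c was called at neither, whereas by library totals Mef2c was called higher at both times and Mef2a and Mef2d at neither. Mef2a was 87.2, 91.7, 93.8 and 94.9 CPM in LVH shams and 72.2, 67.9, 81.7 and 70.4 CPM in 2-week TAC hearts. The groups were separate, with a 1.25-fold fall (log2 fold change -0.33 with SE 0.09, edgeR adjusted p = 0.0134). At 8 weeks HF shams held 76.0, 101, 89.3 and 86.5 CPM and TAC hearts 71.3, 71.2, 70.1 and 60.4 CPM. Every TAC heart was again below every sham, with a 1.29-fold fall (log2 fold change -0.37 with SE 0.10, edgeR adjusted p = 0.0110). That call was lost with the lower and upper library numbers of the cohort as a covariate (-0.36, adjusted p = 0.0600). Sedentary hearts held 68.8 to 77.4 CPM and running hearts 68.2 to 95.4 CPM, and all neighbouring groups overlapped in the order from LVH sham at the top to 8-week TAC at the bottom. Lysmd4 overlaps Mef2a on the other strand over 302 bases and had a log2 fold change of -0.60, adjusted p = 0.00129 at 2 weeks and -0.30, adjusted p = 0.110 at 8 weeks, with 2671 counts in all libraries against 45383 for Mef2a.

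The promoter of Mef2a is shown because it holds a MEF2 box, the motif its own protein binds, and because Mef2a was among the factors that fell. It is the RefSeq promoter on GRCm38.p6, chr7:67372809-67373108, minus strand, 250 bases before to 50 bases after the start, with the MEF2 box in capitals.
Mef2a: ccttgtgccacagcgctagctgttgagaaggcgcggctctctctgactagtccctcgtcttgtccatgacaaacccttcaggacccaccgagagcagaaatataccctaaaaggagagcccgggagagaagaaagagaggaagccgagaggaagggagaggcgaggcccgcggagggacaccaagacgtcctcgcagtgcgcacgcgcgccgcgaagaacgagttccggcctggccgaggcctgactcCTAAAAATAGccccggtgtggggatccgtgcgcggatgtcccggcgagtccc
The box begins at position -2 from the start. Of 32851 promoters of this length, 0.557% hold a MEF2 box on either strand.

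Mef2d, the family member required for the growth and remodelling response to pressure load in mice, was 47.8, 37.7, 33.0 and 40.7 CPM in LVH shams and 29.0, 28.5, 27.3 and 30.6 CPM in 2-week TAC hearts. The TAC hearts were tightly grouped below all shams, with a 1.37-fold fall (log2 fold change -0.46 with SE 0.10, edgeR adjusted p = 0.00422). At 8 weeks it was 49.2, 52.9, 48.6 and 53.7 CPM in HF shams and 39.2, 40.8, 31.0 and 38.0 CPM in TAC hearts. The groups were separate with a fall of the same size, 1.37-fold (log2 fold change -0.46 with SE 0.09, edgeR adjusted p = 0.00220). The cohorts differed in level, with HF shams wholly above LVH shams and 8-week TAC hearts wholly above 2-week TAC hearts, a difference that was not tested. Sedentary hearts held 47.5 to 56.5 CPM and running hearts 47.2 to 53.6 CPM, overlapping with each other and with HF shams.

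Mef2c, which directs early heart formation and in the adult is also expressed in endothelial and myeloid cells, had a mean of 40.7 ± 6.68 CPM in LVH shams and 41.5 ± 1.208 CPM (SD, n = 4) in 2-week TAC hearts (log2 fold change 0.04 with SE 0.11, edgeR adjusted p = 0.823). Its range was 33.5 to 48.9 CPM in those shams and 39.9 to 42.7 CPM in the TAC hearts. At 8 weeks the ranges were 26.4 to 31.6 CPM and 26.5 to 34.2 CPM (log2 fold change 0.06 with SE 0.10, edgeR adjusted p = 0.679). Mef2c formed 16.8% ± 2.97 (range 13.9 to 19.8) of the summed level of the 3 Mef2 genes per kilobase in LVH shams and 21.2% ± 0.730 (range 20.4 to 21.9) in 2-week TAC hearts. The share was 11.2% ± 0.553 (range 10.6 to 11.9) in HF shams and 15.1% ± 2.19 (range 12.6 to 17.9) in 8-week TAC hearts. In both cases each TAC heart had a larger Mef2c share than each of its shams. Sedentary hearts held 23.4 to 32.8 CPM of Mef2c and running hearts 25.0 to 38.0 CPM, and in the order of means every neighbouring pair overlapped.

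Hand2, a factor of the right ventricle and of neural crest derivatives in the embryo, was 6.27, 6.87, 9.93 and 5.56 CPM in LVH shams and 4.39, 6.25, 5.04 and 4.58 CPM in 2-week TAC hearts. The ranges overlapped, and the 1.41-fold fall was called by a narrow margin (log2 fold change -0.50 with SE 0.18, edgeR adjusted p = 0.0488). The call was lost in 5 of 8 fits that left out 1 library (without 2-week TAC heart 1, 2-week TAC heart 3, 2-week TAC heart 4, LVH sham 2 or LVH sham 3; adjusted p up to 0.146), in the fit of all 24 libraries (-0.50, adjusted p = 0.166), with the lower and upper library numbers as a covariate (-0.49, adjusted p = 0.0670) and by library totals alone (-0.09, adjusted p = 0.662), so it held in 8 of 16 alternatives. At 8 weeks HF shams held 6.41, 17.2, 8.40 and 8.44 CPM, with replicate 2 far above the rest, and TAC hearts 6.52, 10.2, 8.50 and 12.1 CPM. Those groups overlapped (log2 fold change -0.12 with SE 0.34, edgeR adjusted p = 0.83), and without HF sham 2 the log2 fold change was 0.27, adjusted p = 0.317. All neighbouring groups overlapped in the order of Hand2 levels. Hand2os1, a long noncoding RNA transcribed away from Hand2 on the other strand, overlaps it over 461 bases and held 5052 counts against 4694 for Hand2. Its log2 fold change was -0.49, adjusted p = 0.0172 at 2 weeks and 0.01, adjusted p = 0.972 at 8 weeks, so without a known strand setting the value of Hand2 is uncertain.

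Srf, the MADS-box factor that drives actin and muscle genes with myocardin and its relatives and growth-response genes with the ternary complex factors, was called in none of the comparisons. Its level was 18.6, 19.1, 16.6 and 16.1 CPM in LVH shams and 16.0, 17.0, 16.4 and 17.1 CPM in 2-week TAC hearts, which overlapped (log2 fold change -0.07 with SE 0.08, edgeR adjusted p = 0.550). HF shams held 29.1, 22.8, 24.6 and 20.6 CPM and 8-week TAC hearts 22.3, 25.3, 23.6 and 24.5 CPM, overlapping as well (log2 fold change -0.02 with SE 0.10, edgeR adjusted p = 0.898). The Srf promoter is shown because it holds a pair of CArG boxes, the motif of SRF itself, while the level of Srf in TAC hearts overlapped with that in their shams. It is the RefSeq promoter on GRCm38.p6, chr17:46556113-46556412, minus strand, with both CArG boxes in capitals.
Srf: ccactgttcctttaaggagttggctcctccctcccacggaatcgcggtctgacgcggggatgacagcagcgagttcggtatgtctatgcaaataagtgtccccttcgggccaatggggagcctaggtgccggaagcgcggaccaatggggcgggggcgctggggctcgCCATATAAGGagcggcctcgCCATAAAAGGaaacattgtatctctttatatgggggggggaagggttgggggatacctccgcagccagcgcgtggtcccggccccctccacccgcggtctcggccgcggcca
They begin at positions -82 and -62 from the start. A CArG box occurs in 1.63% of the 32851 promoters. Of the 7 factors with a promoter in the RefSeq table, Mef2a was the only one with a MEF2 box and Srf the only one with a CArG box.

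The Hand2 promoter, chr8:57320733-57321032, plus strand, GRCm38.p6, is shown because it holds matches to motifs of other factors of the group. The capitals mark a match to CAAGTG, the NKX motif, read on the other strand as CACTTG at -235, and a match to AGATAA, the GATA motif, read as TTATCT at -172.
Hand2: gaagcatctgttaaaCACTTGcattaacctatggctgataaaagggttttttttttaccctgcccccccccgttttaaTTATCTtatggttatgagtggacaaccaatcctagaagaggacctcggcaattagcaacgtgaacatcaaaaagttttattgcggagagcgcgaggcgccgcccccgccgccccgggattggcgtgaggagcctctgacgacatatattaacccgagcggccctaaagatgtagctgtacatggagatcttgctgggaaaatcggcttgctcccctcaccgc
The NKX motif is held by 13.6% and the GATA motif by 11.2% of promoters of this length, searched on both strands. CACTTG is also an E-box of the form CANNTG, which 72.3% of promoters hold. The promoters of Tbx20, Nkx2-5 and Mef2d held none of the GATA, T-box (AGGTGT), NKX, MEF2 or CArG motifs within these windows. A match is a stretch of letters and was not shown to be bound.

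Running for 8 weeks was compared with the sedentary group to ask how exercise growth differs from pressure load. None of the 10 factors was called under the main test or any of 16 alternatives. Over all genes edgeR called 0 of 13824, with 665 at an unadjusted p under 0.05, and DESeq2 called 6. The factors with the smallest unadjusted p were Srf (log2 fold change -0.37 with SE 0.14, edgeR adjusted p = 1.000, unadjusted p = 0.0195) and Nkx2-5 (log2 fold change -0.35 with SE 0.14, edgeR adjusted p = 1.000, unadjusted p = 0.0290). Srf was 16.4, 25.9, 23.8 and 25.3 CPM in sedentary and 18.6, 19.7, 15.1 and 17.2 CPM in running hearts. Nkx2-5 was 8.71, 13.8, 14.9 and 12.0 CPM in sedentary and 9.52, 9.52, 9.76 and 9.58 CPM in running hearts. Sedentary heart 1 lay within the running values for Srf and below them for Nkx2-5, and the other 3 sedentary hearts lay above them for both genes. For the remaining 8 factors the log2 fold change lay between -0.25 and 0.16.

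The control groups of the cohorts did not hold the factors at the same level. HF shams lay wholly above LVH shams for Gata4 (35.9 to 41.1 against 27.5 to 33.6 CPM), Nkx2-5 (11.3 to 12.1 against 8.82 to 10.6 CPM), Mef2d (48.6 to 53.7 against 33.0 to 47.8 CPM) and Srf (20.6 to 29.1 against 16.1 to 19.1 CPM). They lay wholly below them for Mef2c (26.4 to 31.6 against 33.5 to 48.9 CPM), and the other 5 factors overlapped. Of 13542 genes, 12.9% did not overlap between these sham groups. Between the TAC groups, Nkx2-5, Mef2d, Hand2 and Srf were wholly higher and Mef2c wholly lower at 8 weeks than at 2 weeks, against 23.6% of genes. These differences were not tested, and cohort, time and library number cannot be told apart.

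Against sedentary hearts, LVH shams were wholly higher for Mef2a (87.2 to 94.9 against 68.8 to 77.4 CPM) and Mef2c (33.5 to 48.9 against 23.4 to 32.8 CPM), with 23.9% of genes not overlapping. HF shams were wholly higher for Gata6 (21.1 to 24.2 against 15.7 to 18.1 CPM), with 14.1% of genes not overlapping. These counts, 2 of 10 and 1 of 10 factors, are no more than the shares of all genes. The differences were not tested, and sham surgery, cohort and library number cannot be told apart here.

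Whether an effect differed between settings was tested as a contrast of effects over all 24 libraries. The TAC effect at 8 weeks minus that at 2 weeks was called for none of the 10, against 1.09% of 14735 genes (0.719% higher and 0.366% lower). It was -0.32 for Tbx5 (0.32 SE, adjusted p = 0.632) and -0.20 for Tbx20 (0.13 SE, adjusted p = 0.423). The 2-week TAC effect minus the running effect was called for 5 factors, 1 higher and 4 lower, against 20.3% of genes (9.98% higher and 10.3% lower). They were Tbx5 (log2 fold change -1.11 with SE 0.30, edgeR adjusted p = 0.00955), Tbx20 (log2 fold change 0.53 with SE 0.13, edgeR adjusted p = 0.00322), Gata6, Mef2a and Mef2d. Gata6, Mef2a and Mef2d had log2 differences of -0.39, -0.44 and -0.42 with adjusted p of 0.0259, 0.0270 and 0.0298. The 8-week TAC effect minus the running effect was called for 3, all lower, against 11.3% of genes (5.52% higher and 5.73% lower). They were Tbx5 (log2 fold change -1.43 with SE 0.31, edgeR adjusted p = 0.00360), Gata6 (log2 fold change -0.46 with SE 0.13, edgeR adjusted p = 0.0166) and Mef2a (log2 fold change -0.47 with SE 0.14, edgeR adjusted p = 0.0274). Of 16 fits that left out 1 library, the 2-week calls were lost in 4 for Gata6 and in 5 each for Mef2a and Mef2d (adjusted p up to 0.0828), and the 8-week call for Mef2a in 5 (up to 0.0754). With library totals as the only scaling, the 2-week differences for Gata6, Mef2a and Mef2d were above 0, and those of Tbx5 (-0.64, adjusted p = 0.129) at 2 weeks and of Gata6 (-0.05, adjusted p = 0.862) and Mef2a (-0.07, adjusted p = 0.813) at 8 weeks were not called. Neither difference from running was called for Nkx2-5, Gata4, Mef2c, Hand2 and Srf.

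The factors were also set against the summed cardiomyocyte markers of the same library. That sum, led by Ttn and Myh6, had a log2 ratio of group means of -0.52 at 2 weeks and -0.30 at 8 weeks. Per unit of the marker sum, 4 factors lay above all LVH shams in all 2-week TAC hearts, namely Tbx20 (log2 ratio 0.94), Mef2c (0.56), Srf (0.45) and Gata4 (0.40), and the other 6 overlapped, Tbx5 at -0.42 included. On this scale 53.6% of all genes tested lay above all LVH shams and 2.08% below, so 4 of 10 is no more than the background. At 8 weeks Tbx20 (0.51) lay above all HF shams, Mef2d (-0.16) below all of them, and the other 8 overlapped, Tbx5 at -0.97, where 35.6% of all genes tested lay above and 4.09% below. This scale was chosen after the values were seen and is a description, as several of the markers are themselves targets of these factors.

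The partners of the factors were read from 4 gene lists. Among 28 cofactors and chromatin partners, 9 fell and 2 rose at 2 weeks (median log2 fold change -0.20) and 6 fell and 0 rose at 8 weeks (-0.22). That is 39.3% of the list called at 2 weeks and 21.4% at 8 weeks, beside 33.2% and 29.6% of all genes tested. At 2 weeks they included Hdac4, a class II deacetylase that represses MEF2 (-0.92, adjusted p = 1.80e-05), Hopx, a homeodomain protein that restrains SRF (-1.29, adjusted p = 3.35e-04), Smyd1, a muscle methyltransferase (-0.61, adjusted p = 9.58e-04), and Vgll4, a TEAD cofactor (0.45, adjusted p = 0.00350), all with edgeR. At 8 weeks those that fell included Hdac5, another class II deacetylase (-0.55, adjusted p = 8.93e-04), Camta2, a coactivator of NKX2-5 (-0.47, adjusted p = 0.00521), and Hopx (-0.63, adjusted p = 0.00761). With library totals as the only scaling, 2 of the 28 fell and 7 rose at 2 weeks, and 0 fell and 5 rose at 8 weeks. On that scale, 614 of 14224 genes fell and 6995 rose at 2 weeks. At 8 weeks 568 of 13621 fell and 6075 rose. Without LVH sham 4, 5 of the 28 fell at 2 weeks.

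Of 26 other developmental transcription factors of the heart that were tested, 5 rose and 7 fell at 2 weeks (median -0.20) and 2 rose and 9 fell at 8 weeks (median -0.37). That is 46.2% and 42.3% of the list called, beside 33.2% and 29.6% of all genes tested. The 2-week genes with the smallest p were Tcf21, a fibroblast and epicardial factor that is also one of the fibroblast markers (1.197, adjusted p = 1.37e-04), Esrra and Klf15, regulators of cardiac metabolism (-0.69, adjusted p = 2.16e-04 and -1.26, adjusted p = 2.20e-04), and Heyl, a Notch target of vascular cells (0.84, adjusted p = 6.18e-04). At 8 weeks they were Meis2, a homeodomain gene (-0.60, adjusted p = 0.00109), Esrrg, a relative of Esrra (-0.42, adjusted p = 0.00170), Heyl (0.52, adjusted p = 0.00371) and the Iroquois gene Irx1 (-1.10, adjusted p = 0.00547). Per library totals, 10 rose and 2 fell at 2 weeks, beside 6995 and 614 of 14224 genes. At 8 weeks 5 rose and 1 fell, beside 6075 and 568 of 13621 genes. Without 8-week TAC heart 4, 5 of the list fell at 8 weeks, and 1 rose without 8-week TAC heart 1 or 3 or HF sham 1, 3 or 4.

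Among 35 cardiomyocyte genes known to be bound or activated by these factors, 8 rose and 18 fell at 2 weeks (median -0.39), and 9 rose and 11 fell at 8 weeks (median -0.10). That is 74.3% and 57.1% of the list called, beside 33.2% and 29.6% of all genes tested. By library totals alone, 13 of the list rose and 11 fell at 2 weeks, beside 6995 and 614 of 14224 genes. At 8 weeks 6 of the list fell, beside 568 of 13621 genes. The members that rose with the smallest p are genes of the stress response: Acta1, skeletal alpha-actin (3.09, adjusted p = 3.06e-07 at 2 weeks and 4.73, adjusted p = 1.84e-06 at 8 weeks), Nppa, the atrial natriuretic peptide gene (4.29, adjusted p = 2.17e-06 and 4.05, adjusted p = 5.67e-09), and Ankrd1, a stress-responsive titin-binding repeat protein (1.96, adjusted p = 1.27e-06 and 2.73, adjusted p = 1.33e-07). Nppb, the B-type natriuretic peptide gene, rose at 2 weeks (2.72, adjusted p = 3.98e-06). At 8 weeks Nppb was 273 to 444 CPM in TAC hearts and 26.9 to 179 CPM in HF shams, and its test there is not given. Kcnj3, an atrial potassium channel gene, fell at 2 weeks (-1.50, adjusted p = 5.17e-06) and at 8 weeks (-1.23, adjusted p = 1.27e-05).

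Of the Srf and myocardin-related target genes, 15 of 21 tested rose and 1 fell at 2 weeks (median 0.76), while Srf was not called. At 8 weeks 8 of 22 rose and 0 fell (median 0.22). That is 76.2% of the list called at 2 weeks and 36.4% at 8 weeks, beside 33.2% and 29.6% of all genes tested. At 2 weeks they included Tagln and Cnn1, smooth muscle contractile genes that are also smooth muscle markers here (1.03, adjusted p = 2.73e-06 and 2.03, adjusted p = 1.44e-05), Tpm4, a cytoskeletal tropomyosin (0.85, adjusted p = 2.65e-05), and Ccn1, a matricellular protein (0.74, adjusted p = 4.26e-05). At 8 weeks they were Tpm4 (0.61, adjusted p = 5.39e-04), Egr2, an early growth response gene (1.31, adjusted p = 0.00631), Tagln (0.65, adjusted p = 0.00638) and Actb, cytoplasmic actin (0.39, adjusted p = 0.00846). In the running comparison, 0 genes of any of the 4 lists were called by edgeR. By library totals alone, 0 of the Srf and myocardin-related genes fell at 2 weeks, beside 614 of 14224 genes. At 8 weeks 13 of them rose, beside 6075 of 13621 genes. The number of them that rose at 8 weeks was 4 to 5 without TAC heart 2 or 4 or without HF sham 2, 3 or 4.

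Over the 24 libraries, genes whose log2 CPM followed each factor most closely were searched among 12956 genes, as a description of libraries that share depth, cohort and treatment. Tbx5 was closest to Apex2 (Pearson r = 0.95), Ptp4a3 (0.94) and Kcnh2 (0.93), the last a potassium channel gene. Nkx2-5 was closest to Kcng2 (0.94), Asb2 (0.92) and Kcnj11 (0.90), and Mef2d to Pde4dip (0.96), Acacb (0.96) and Dennd4b (0.96). The closest gene was Ghr for Mef2a (0.92), Atp13a3 for Tbx20 (0.91), H1f0 for Mef2c (0.88), Stk40 for Srf (0.87), Srrm4 for Gata4 (0.85), Mfap1a for Gata6 (0.83) and Irs2 for Hand2 (0.78). Among the factors themselves the highest correlations were those of Nkx2-5 with Mef2d (r = 0.84) and of Gata4 with Nkx2-5 (0.80), and the lowest was that of Tbx5 with Tbx20 (-0.75). After the group means were subtracted, Gata6 and Tbx20 were each among the 3 genes closest to the other, with r = 0.81.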

How the data were processed

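RNA was measured by sequencing in 24 mouse heart libraries, 4 in each of 6 groups; per the labels' protocols, Trizol was used on frozen tissue, a RiboZero kit removed ribosomal RNA, and an NEB kit made the libraries. The authors deposited estimated counts per gene, which need not be whole but are written as whole numbers, unscaled and unfiltered. Per the submitters' processing notes the tools were FastQC and Salmon and the build was mm9. Versions, annotation and strand setting: not given in the sources used here. A further row names no gene, held 0% of counts and was left out. Symbols were taken by identifier from GENCODE for GRCm38 (42462 of 43432 identifiers), and exon lengths from the same annotation.

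From these counts, edgeR 4.0.16 (R 4.3.3) was run with filterByExpr, TMM normalization, a robust quasi-likelihood fit and the two-sided F test, with Benjamini-Hochberg adjustment over all genes tested. Each main comparison used its own 8 libraries, and differences between effects were contrasts in a fit of all 24. CPM values are scaled by TMM over the 24 libraries and divided by exon length where levels of genes are compared. The groups share no control library. Each comparison was repeated with DESeq2 1.42.0, other scalings, no filter, without mitochondrial genes, with covariates and without each library. The fits were tested on simulated counts. Promoters came from the RefSeq table for GRCm38.p6, which held 7 of the 10 factors.

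The 10 factors, the gene lists and the marker lists were chosen with earlier results of these data known, so none is independent support. The rule named all 10 factors, up to 4 called genes with the smallest p per list and comparison, and for each factor the 3 genes with the highest correlation over the libraries. Of the genes so selected, 1 is left out of the text. Hand2os1, Lysmd4 and 1010001N08Rik are named because they overlap a factor. The library numbers run in order from the exercise cohort through the 2-week to the 8-week cohort, so cohort and library number cannot be told apart. Within the 8-week cohort, TAC hearts have numbers 18 to 21 and HF shams 17 and 22 to 24. Treatment and library number are therefore partly tied in that cohort. Libraries held 16802939 to 39512101 counts (median 22845050), of which 5949640 to 12932067 were not mitochondrial. No pair of libraries of the same group agreed within sampling noise, and pairs across groups were not compared.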

Additional observations from a re-analysis of the deposited data

Results flagged for a closer look

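A sample far from the others of its group was sought in all 60 combinations of gene and group, where chance gives about 1 in 20, and 2 were found. Gata4 was 34.3 CPM in the 8-week TAC heart 2, against 29.6 to 30.2 CPM in the other 3. Mef2a was 60.4 CPM in the 8-week TAC heart 4, against 70.1 to 71.3 CPM in the other 3. Both genes fell at 8 weeks with and without these libraries.

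Effects of TAC and of running differed by a test of the difference itself (edgeR) in 8 cases. At 2 weeks, the TAC effect minus the running effect was -1.11 on the log2 scale (SE 0.30, adjusted p = 0.00955) for Tbx5 and 0.53 on the log2 scale (SE 0.13, adjusted p = 0.00322) for Tbx20. It was -0.39 on the log2 scale (SE 0.13, adjusted p = 0.0259) for Gata6, -0.44 on the log2 scale (SE 0.14, adjusted p = 0.0270) for Mef2a and -0.42 on the log2 scale (SE 0.14, adjusted p = 0.0298) for Mef2d. Of 16 fits that left out 1 library, the call was lost in 4 for Gata6 (without sedentary heart 3, running heart 2, LVH sham 2 or 2-week TAC heart 3; adjusted p up to 0.0742), in 5 for Mef2a (without sedentary heart 4, running heart 2 or 3, or 2-week TAC heart 2 or 4; up to 0.0803) and in 5 for Mef2d (without sedentary heart 1 or 4, running heart 3, LVH sham 1 or 2-week TAC heart 3; up to 0.0828). At 8 weeks it was -1.43 on the log2 scale (SE 0.31, adjusted p = 0.00360) for Tbx5, -0.46 on the log2 scale (SE 0.13, adjusted p = 0.0166) for Gata6 and -0.47 on the log2 scale (SE 0.14, adjusted p = 0.0274) for Mef2a, whose call was lost in 5 of 16 such fits (without sedentary heart 4, running heart 2 or 3, HF sham 2 or 8-week TAC heart 4; up to 0.0754). The calls for Tbx5 at both times, Tbx20 at 2 weeks and Gata6 at 8 weeks held in all 16. By library totals alone, the calls for Tbx20 at 2 weeks and Tbx5 at 8 weeks held and the other 6 were lost. In the running comparison the same genes had log2 fold changes of 0.16 (Tbx5), -0.12 (Tbx20), 0.07 (Gata6), 0.11 (Mef2a) and -0.05 (Mef2d), none of them called. The cohorts also differ in library number, whose part was not tested.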

How the results depend on the processing

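Scaling by library totals alone gave 3 factors higher and 1 lower at 2 weeks, 2 higher and 1 lower at 8 weeks, and 3 differences between the 2-week TAC and running effects, and the median gene moved by 0.41, 0.33 and 0.48 (log2). On that scale the log2 fold changes at 2 weeks were 0.31 for Gata4, 0.11 for Gata6, 0.021 for Nkx2-5, 0.084 for Mef2a and 0.34 for Srf. At 8 weeks they were 0.23 for Hand2 and 0.30 for Srf, in running -0.0040 for Gata6 and -0.078 for Hand2, and the 2-week minus running differences were 0.11 for Gata6, 0.044 for Mef2a and 0.088 for Mef2d. DESeq2 called 1 factor higher at 8 weeks and 5 differences between the 8-week TAC and running effects. The replicate block also gave 5, and turned Hand2 in running to -0.0026. Without the filter Srf at 8 weeks was 0.0013, and with the lower and upper library numbers as a covariate Hand2 was 0.23; the cause was not tested for either.

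Leaving out 1 library gave 4 to 6 factors lower and 1 to 1 higher at 2 weeks, 6 to 6 lower and 0 to 1 higher at 8 weeks, and 0 to 0 in running. The differences between effects ranged from 3 to 5 (2-week TAC minus running, 3 without sedentary heart 4, running heart 2 or 3, or 2-week TAC heart 3), from 2 to 4 (8-week TAC minus running) and from 0 to 0 (8-week minus 2-week TAC). Log2 fold changes that crossed 0 ranged over -0.082 to 0.0020 (Mef2d, running), -0.17 to 0.18 (Hand2, running), -0.046 to 0.13 (Mef2c, 2 weeks), -0.0058 to 0.12 (Mef2c, 8 weeks), -0.30 to 0.27 (Hand2, 8 weeks) and -0.099 to 0.066 (Srf, 8 weeks). None of these was called. Over all genes, the 8-week minus 2-week contrast called 106 genes higher and 54 lower, but 2 and 7 by library totals, 374 and 153 by DESeq2, 418 and 168 with the replicate block, and between 1 and 322 higher without 1 library. By library totals, 6995 genes rose and 614 fell at 2 weeks and 6075 rose and 568 fell at 8 weeks; with the library-number covariate 1278 rose and 1261 fell at 8 weeks. In running, the replicate block called 25 higher and 22 lower, DESeq2 3 and 3. Relative to running, library totals called 5101 higher and 270 lower (2-week TAC) and 3338 higher and 192 lower (8-week TAC). The labels do not say whether the replicate numbers pair the samples, and the main tests used no pairing. Deviations of same-numbered libraries correlated at 0.04 to 0.34 in the running comparison, -0.02 to 0.18 at 2 weeks and -0.17 to 0.08 at 8 weeks. A library correlated best with its own number in 4 of 12 cases. Weak correlations like these cannot decide whether the samples are paired. Each library has 5949640 to 12932067 counts outside mitochondrial genes, and the factor with the fewest counts, Tbx5, rests on 49 to 251 counts per library.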
